A study of Mus musculus with 6 samples.

Results

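Guanylate-binding proteins (GBPs) and immunity-related GTPases (IRGs) are the large GTPases that cells make in response to interferon. The 10 genes described here, Gbp2, Gbp3, Gbp4, Gbp5, Gbp6, Gbp7, Gbp9, Irgm1, Irgm2 and Igtp, were taken by symbol from a table of read counts that held 22105 rows with an Ensembl gene identifier, and each symbol matched 1 row. The counts came from RNA-seq of 4T1 cells, a mouse mammary carcinoma line used as a model of triple-negative breast cancer. The cells were grown in culture and received either DMSO, the vehicle, or 10 µM P3FI-90, an inhibitor of the histone demethylase KDM3B, for 24 h. Each group had 3 libraries. Both groups were the same unmodified line, and no other cell type and no added interferon is named for these cultures. The labels do not say whether the libraries of a group came from separate cultures, so the p-values measure the spread between these libraries, which may be technical.

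GBPs gather on the membranes of vacuoles that hold bacteria or parasites and on bacteria in the cytosol, break these compartments open and help to start inflammasome signaling. Several GBPs carry a lipid anchor added by prenylation. IRGs are smaller GTPases of the same defense. Irgm1, Irgm2 and Igtp (also called Irgm3) belong to the regulatory branch, which keeps the effector IRGs inactive on the cell's own membranes. In the mouse the genes lie in clusters, and interferon drives their transcription through DNA elements that include the interferon-stimulated response element (ISRE), bound by complexes that hold IRF9 and by IRF1, and the gamma-activated site (GAS), which answers to interferon gamma.

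The libraries held between 31327094 and 37395732 counts on named genes. Libraries of 1 group were not copies of each other, with a chi-square per gene of 5.51 to 8.47 between them, more than sampling noise, against 353 to 397 between libraries of different groups. A count of 2 was more common than a count of 1 in each library (278 to 389 genes against 81 to 131), so both mates of a read pair may have been counted. The first DMSO library held 61 genes with 5 or more counts that no other library detected, against 11 and 16 in the other DMSO libraries and 56 to 76 in the P3FI-90 libraries. Among these were Col3a1, a fibroblast collagen, with 38 counts and Lyz2, a myeloid lysozyme, with 16 counts, and results that rest on this library are given with and without it. Kdm3b itself had 2851 ± 67.4 normalized counts after DMSO and 3109 ± 55.7 after P3FI-90 (SD, n = 3 each, log2 fold change 0.13 ± 0.043 SE, adjusted p = 0.0169), a call that was lost under 4 of 15 alternative settings. The compound acts on the enzyme, so this transcript does not check the treatment.

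After P3FI-90, 9 of the 10 genes were higher and none was lower. The increases ranged from 1.18-fold for Irgm1 to 6.23-fold for Gbp3, leaving aside Gbp5, which was nearly absent after DMSO. Gbp2, the gene with the highest level per length after DMSO, was not called in either direction. The calls rest on edgeR's quasi-likelihood test with p-values adjusted over 12288 tested genes, of which 39.9% were called higher and 39.4% lower, so a call by itself was common. A call with a log2 fold change over 1 was less common, at 12.7% of tested genes, and 7 of the 10 genes had one. Every P3FI-90 library lay above every DMSO library for 8 of the 10 genes, against 41.0% of tested genes. The median log2 fold change was 1.30 over the 10 genes and 0.013 over all tested genes. For a single gene whose groups do not overlap, the exact two-sided permutation test with 3 libraries against 3 gives 0.1, which is the smallest p it allows. Gbp5 and Gbp6 passed the filter on low counts only through the P3FI-90 libraries, which favors a higher call. Both are counted among the genes over 1 and among those without overlap. Of the other 8 genes 7 were called higher, and all of these but Gbp7 had groups without overlap. Among them Gbp3, Gbp4, Gbp7, Gbp9 and Irgm2 had a log2 fold change over 1. Scaling by total counts in place of edgeR's TMM factors raised the median of all genes by 0.21 and changed the split of calls from 4908 higher and 4841 lower to 6177 higher and 3641 lower, while the number of the 10 genes called higher stayed at 9.

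**Figure D1:**
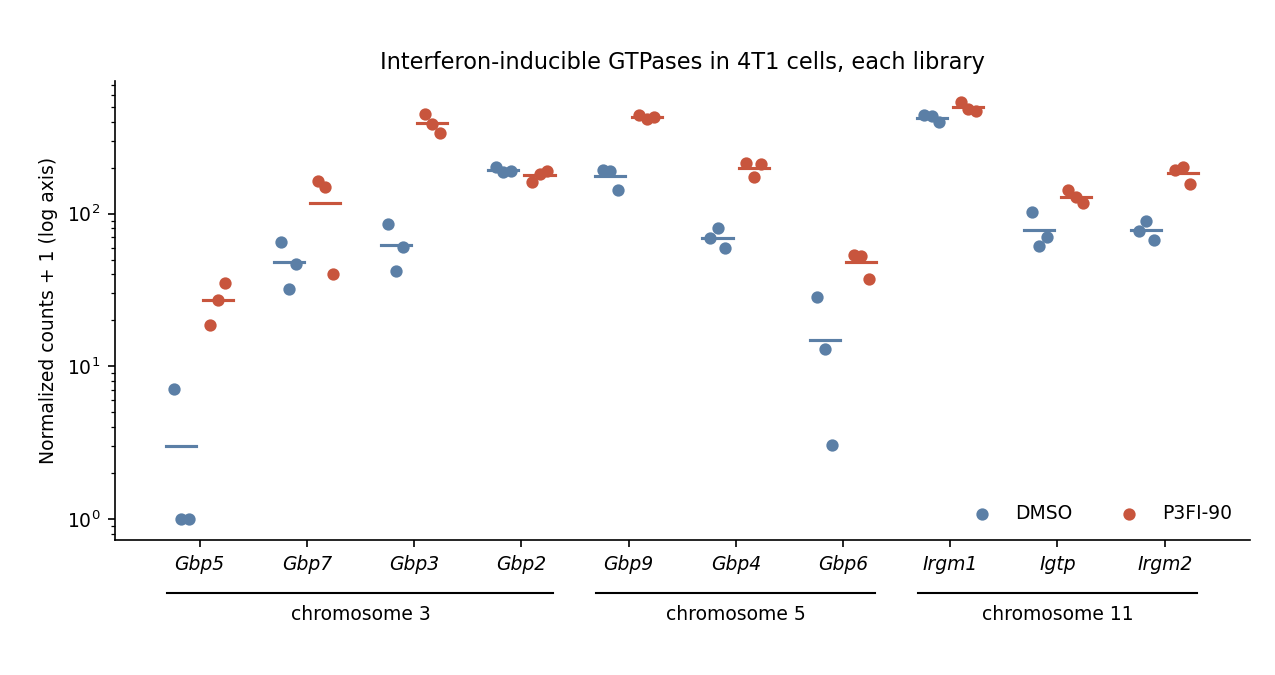
Normalized counts plus 1 (log axis) of the 10 genes in each of the 3 DMSO (blue) and 3 P3FI-90 (red) libraries, with 1 point per library and a bar at the group mean of normalized counts, plus 1. The groups are apart for 8 genes and overlap for Gbp2 and for Gbp7, where the third P3FI-90 library lies among the DMSO libraries.

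The stretches upstream of the genes are shown because they hold the sites through which interferon is known to act on this family. RefSeq promoter windows, from 250 bases before to 50 bases after a gene's start in the mouse build GRCm38.p6, were at hand for 7 of the 10 genes, namely all but Gbp4, Gbp6 and Gbp9. The windows were searched on both strands for the core of the ISRE, GAAANNGAA, and for the GAS, TTCNNNGAA. Each stretch below runs 5′ to 3′ on the strand of its gene and ends before the start, with matches to the ISRE core in capitals. A match on the opposite strand reads as its reverse complement, and overlapping matches run together.
Gbp5, chr3:142496730-142496818 (+ strand): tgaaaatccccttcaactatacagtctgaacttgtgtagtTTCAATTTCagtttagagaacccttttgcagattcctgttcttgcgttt
Gbp7, chr3:142530244-142530332 (+ strand): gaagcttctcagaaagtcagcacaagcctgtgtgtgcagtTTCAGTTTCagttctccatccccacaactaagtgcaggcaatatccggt
Gbp3, chr3:142559960-142560043 (+ strand): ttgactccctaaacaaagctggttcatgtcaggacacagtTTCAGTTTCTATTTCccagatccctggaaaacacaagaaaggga
Gbp2, chr3:142620565-142620653 (+ strand): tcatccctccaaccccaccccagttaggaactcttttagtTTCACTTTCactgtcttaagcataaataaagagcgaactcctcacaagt
Irgm1, chr11:48871421-48871490 (− strand): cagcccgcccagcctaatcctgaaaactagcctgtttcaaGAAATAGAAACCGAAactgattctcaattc
Igtp, chr11:58199482-58199555 (+ strand): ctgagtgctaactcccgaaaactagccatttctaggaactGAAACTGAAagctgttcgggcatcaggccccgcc
Irgm2, chr11:58214873-58214961 (+ strand): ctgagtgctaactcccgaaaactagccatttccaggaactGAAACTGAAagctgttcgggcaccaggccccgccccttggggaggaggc

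All 7 genes held an ISRE core in a window, against 8.56% of the 32851 windows in the RefSeq table. The match began 164 bases before the start of Gbp5 and between 64 and 30 bases before the start of the other genes, counting the match farthest from the start. Gbp3 and Irgm1 each held a pair of overlapping matches, and a second window for Gbp3 at another start held none. The GAS was found in the windows of 4 of the 7 genes, Gbp5, Gbp7, Igtp and Irgm2, against 8.30% of all windows, and 1.07% of all windows held both motifs. The motifs were not particular to these genes. Among related GTPases whose windows were searched, Gbp2b held the ISRE core, Gm12185, Tgtp1 and Tgtp2 both motifs, and Gm5431 and Ifi47 neither. Iigp1 and the other related genes on chromosome 18 were left out of this search. In Igtp and Irgm2 the GAS began 11 bases before the ISRE core, as it also did in Gm12185, Tgtp1 and Tgtp2. In the windows of the neighboring pair Igtp and Irgm2, 194 of 215 aligned bases (90.2%) were identical. Gbp2, whose transcript was not called, carried an ISRE core 58 bases before its start, as Gbp3 did at 44 and 38 bases. A match is a string of letters and was not tested for binding. The build of the windows differs from the GRCm39 build that the authors' processing notes name for the counts.

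**Figure D2:**
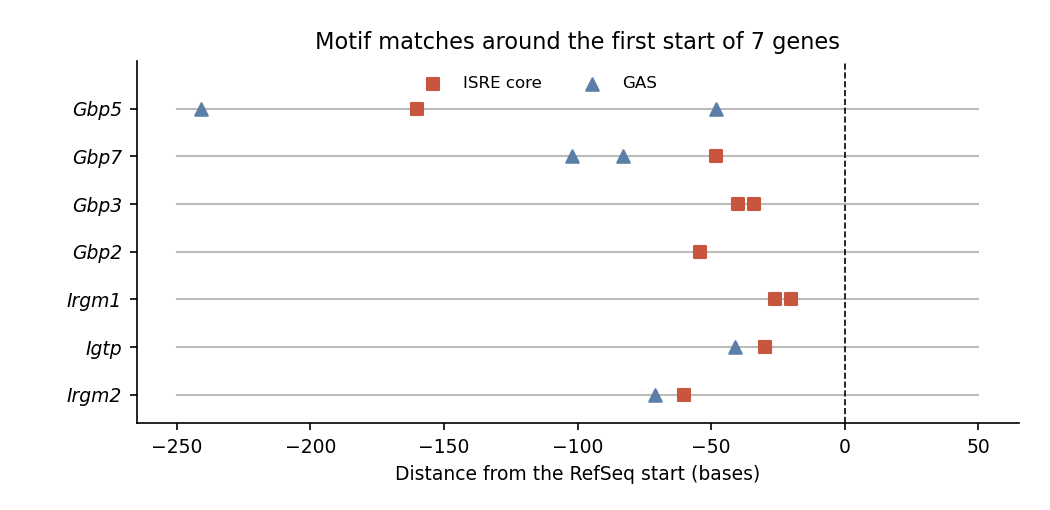
Positions of the ISRE core (red squares) and of the GAS (blue triangles) in the promoter windows of 7 genes, in bases from the first RefSeq start of each gene (dashed line), with each mark at the middle of its match. The ISRE core lies within 64 bases of the start for 6 genes and farther upstream for Gbp5.

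The cluster on chromosome 3 lists Gbp5, Gbp7, Gbp3, Gbp2b and Gbp2 in this order, and it held both the largest increase and, in Gbp2, the only one of the 10 genes that was not called. Normalized counts of the 4 genes described here, which are counts corrected for depth and composition, summed to 303 ± 50.3 after DMSO and to 709 ± 99.5 after P3FI-90 (SD, n = 3 each).

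Gbp3 (ENSMUSG00000028268), a cytosolic GTPase, showed the largest change among those of the 10 genes with counts in every library. It had 85.0, 40.9 and 59.2 normalized counts in the DMSO libraries and 449, 383 and 335 in the P3FI-90 libraries. The lowest treated library lay far above the highest control, and the means rose from 61.7 ± 22.1 to 389 ± 57.3. The log2 fold change was 2.64 ± 0.21 (SE, 95% interval 2.18 to 3.10, adjusted p = 4.48e-08), or 6.23-fold.

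Gbp2 (ENSMUSG00000028270), a prenylated GBP that takes part in defense against bacteria and Toxoplasma, had 202, 185 and 190 normalized counts after DMSO and 161, 182 and 189 after P3FI-90. The groups overlapped, and the mean was 193 ± 8.79 before and 177 ± 14.6 after treatment. The log2 fold change was −0.12 ± 0.15 (SE, adjusted p = 0.464), and its 95% interval, from −0.44 to 0.20, lay wholly below that of Gbp3. Under total-count scaling the sign turned to 0.093 with no call. Gbp2b, the neighbor between Gbp3 and Gbp2, which is known for conferring resistance to bacteria, stood at 153 ± 18.7 and 151 ± 24.4 normalized counts (log2 fold change −0.02, 95% interval −0.41 to 0.37, adjusted p = 0.938), and its sign also depended on the scaling.

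The ratio of Gbp3 counts to Gbp2 counts is taken within a library and does not depend on scaling. It was 0.420, 0.221 and 0.312 in the DMSO libraries and 2.79, 2.11 and 1.77 in the P3FI-90 libraries. Gbp3 thus had fewer counts than Gbp2 in every control library and more in every treated library.

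Gbp5 (ENSMUSG00000105504), a GBP known to promote assembly of the NLRP3 inflammasome, had 6, 0 and 0 counts after DMSO and 19, 29 and 35 after P3FI-90. All of its control counts came from the first DMSO library, and every treated library exceeded it. The ratio of the groups was 12.1, with an exact 95% counting interval from 5.33 to 33.9, and the adjusted p was 0.00106. Without the first DMSO library the transcript was at least 15.6-fold higher, against a floor of 3 counts over the group. This bound, like the interval, covers counting error only and would be weaker if both mates were counted. The same holds for the later bounds.

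Gbp7 (ENSMUSG00000040253), which is linked to oxidative defense in phagocytes, had 63.8, 31.3 and 45.9 normalized counts after DMSO and 162, 147 and 39.2 after P3FI-90. Only the first and second treated libraries stood above the controls, and the third lay within the control range. The means were 47.0 ± 16.2 and 116 ± 67.1, and the log2 fold change was 1.30 ± 0.43 (SE, adjusted p = 0.0129). The call was lost without the first P3FI-90 library (0.98, adjusted p = 0.0758), without the second (1.09, adjusted p = 0.0540) and with limma-voom (1.11, adjusted p = 0.0666). The ratio of Gbp7 to Gbp3 counts was 0.750, 0.765 and 0.776 in the DMSO libraries and 0.360, 0.385 and 0.117 in the P3FI-90 libraries, so the pair kept nearly the same proportion across control libraries and a lower one across treated libraries.

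The cluster on chromosome 5 lists Gbp8, Gbp9, Gbp4, Gbp10, Gbp6 and Gbp11. Its 3 genes described here were all higher, and together they rose from 256 ± 47.1 to 674 ± 32.3 normalized counts.

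Gbp9 (ENSMUSG00000029298) had 192, 188 and 142 normalized counts in the DMSO libraries and 442, 417 and 426 in the P3FI-90 libraries. The groups did not overlap, and the treated libraries lay closer together than the controls. The mean rose 2.46-fold, from 174 ± 27.9 to 428 ± 12.4 (log2 fold change 1.30 ± 0.13 SE, adjusted p = 5.97e-07).

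Gbp4 (ENSMUSG00000079363) had 67.8, 79.5 and 58.2 normalized counts after DMSO and 213, 174 and 210 after P3FI-90. No library of one group reached the other. The mean rose 2.91-fold, from 68.5 ± 10.7 to 199 ± 22.0 (log2 fold change 1.54 ± 0.19 SE, adjusted p = 4.94e-06). Exons of Gbp4, Gbp8 and Gbp9 overlap in the GENCODE M21 annotation, and 7.78% and 8.05% of the 50-base stretches of Gbp4 and Gbp9 transcripts also occur in other genes.

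Gbp6 (ENSMUSG00000104713) had 27.3, 12.0 and 2.04 normalized counts after DMSO and 52.4, 52.2 and 36.2 after P3FI-90. The controls were widely spread, yet the lowest treated library lay above the highest control. The mean rose 3.36-fold, from 13.8 ± 12.7 to 46.9 ± 9.26 (log2 fold change 1.75 ± 0.55 SE, adjusted p = 0.00958). Without the first DMSO library the log2 fold change was 2.77.

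Counts of Gbp6 are uncertain, since 70.7% of its 50-base stretches occur in other genes, most of them in Gm43302, a gene model that overlaps it, and Gbp10 shares 84.1% of its own. Gm43302, named after its values were seen, rose from 27.9 ± 15.4 to 148 ± 12.7 normalized counts (log2 fold change 2.41 ± 0.34 SE, adjusted p = 1.48e-05). Gbp6 and Gbp10 summed as 1 gene gave a log2 fold change of 1.77 (edgeR's quasi-likelihood test, adjusted p = 0.00969). The sum of Gbp6, Gbp10 and Gm43302 does not depend on how counted reads were split between them. Reads that match several genes may have been dropped, since the counting settings are not given. This sum was 78.9, 51.8 and 12.2 normalized counts after DMSO and 224, 213 and 211 after P3FI-90. These sums did not overlap, with means of 47.7 ± 33.5 and 216 ± 6.91.

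The 3 regulatory IRGs lie on chromosome 11, with Irgm1 in a group that also holds Tgtp1, Tgtp2 and Ifi47, and with Igtp and Irgm2 side by side elsewhere. Together they rose from 576 ± 43.6 to 807 ± 67.3 normalized counts, and the increase was uneven among them.

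Irgm2 (ENSMUSG00000069874), known to restrain caspase-11 responses, had 75.9, 89.1 and 66.3 normalized counts after DMSO and 193, 201 and 155 after P3FI-90. Every treated library lay well above the controls. The mean rose 2.38-fold, from 77.1 ± 11.4 to 183 ± 24.8 (log2 fold change 1.25 ± 0.20 SE, adjusted p = 4.54e-05).

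Igtp (ENSMUSG00000078853), which sits on the endoplasmic reticulum and lipid droplets, had 101, 60.2 and 69.4 normalized counts after DMSO and 141, 128 and 116 after P3FI-90. The groups did not overlap, and the first DMSO library came nearest to the treated ones. The mean rose 1.66-fold, from 76.9 ± 21.5 to 128 ± 12.9 (log2 fold change 0.73 ± 0.23 SE, adjusted p = 0.0106). Igtp and Irgm2 overlap in the GENCODE M21 annotation, and 11.8% of the 50-base stretches of Igtp occur in Irgm2. Summed as 1 gene they gave a log2 fold change of 1.01.

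Irgm1 (ENSMUSG00000046879), which acts in autophagy and mitochondrial quality control, had the most counts of the 10 genes and the smallest called increase. It had 439, 432 and 394 normalized counts after DMSO and 538, 483 and 467 after P3FI-90. The groups were apart by less than the range within either. The mean rose 1.18-fold, from 422 ± 24.4 to 496 ± 37.2 (log2 fold change 0.23 ± 0.098 SE, 95% interval 0.02 to 0.45, adjusted p = 0.0415). This call was lost under 6 of 15 alternative settings, among them leaving out the first P3FI-90 library (adjusted p = 0.164) or the third DMSO library (adjusted p = 0.149). The ratio of Irgm2 to Irgm1 counts was 0.173, 0.206 and 0.168 in the DMSO libraries and 0.358, 0.417 and 0.331 in the P3FI-90 libraries, without overlap.

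**Figure D3:**
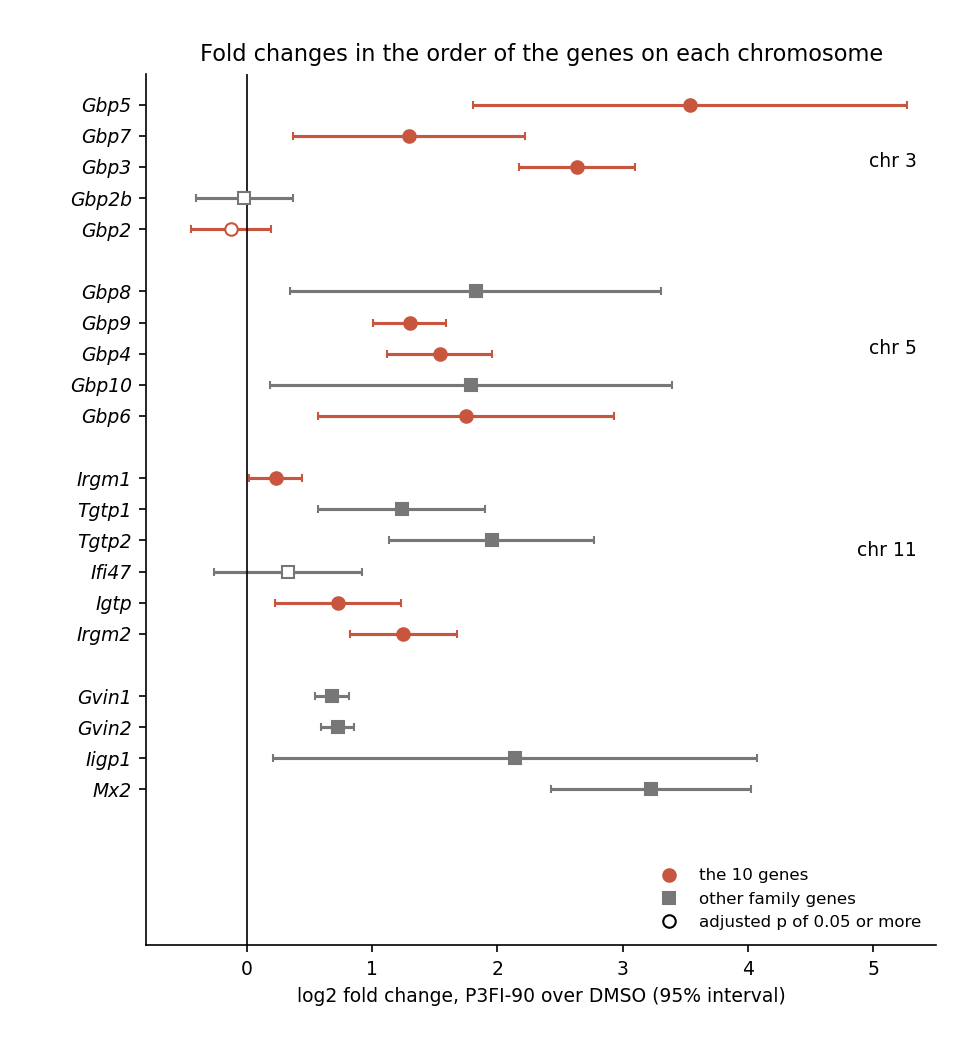
Log2 fold changes (P3FI-90 over DMSO) with 95% intervals from edgeR's quasi-likelihood test for the 10 genes (red circles) and other tested genes of the family (gray squares), in gene order on each chromosome, with open symbols for an adjusted p of 0.05 or more. On chromosome 3 the intervals of Gbp2b and Gbp2 span 0 beside Gbp3 at 2.64, and Mx1 is left out because it had no counts after DMSO.

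Levels can be compared between genes only per length, and normalized counts were therefore divided by the length of each gene's exons in GENCODE M21, in kilobases. This length takes all annotated exons of a gene together and not the transcript made in these cells. The order of the genes and their shares therefore depend on the annotation. After DMSO the order began with Gbp2 at 76.5 ± 3.49 per kilobase, Irgm1 at 72.6 ± 4.20, Igtp at 38.1 ± 10.6 and Gbp9 at 33.6 ± 5.40. It ended with Irgm2 at 20.9 ± 3.10, Gbp3 at 18.9 ± 6.78, Gbp4 at 9.14 ± 1.42, Gbp7 at 8.37 ± 2.89, Gbp6 at 2.32 ± 2.14 and Gbp5 at 0.305 ± 0.528. The neighbors Gbp2 and Irgm1, Igtp and Gbp9, Irgm2 and Gbp3, Gbp4 and Gbp7, and Gbp6 and Gbp5 overlapped between libraries, so their order is not fixed by these data.

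After P3FI-90 Gbp3 moved from the sixth place to the first, at 119 ± 17.5 per kilobase, with no library overlapping those of Irgm1 at 85.4 ± 6.40. Gbp9 followed at 82.8 ± 2.39 and Gbp2, now the fourth, at 70.4 ± 5.79. Below them were Igtp at 63.4 ± 6.36, Irgm2 at 49.6 ± 6.72, Gbp4 at 26.5 ± 2.93, Gbp7 at 20.7 ± 11.9, Gbp6 at 7.88 ± 1.55 and Gbp5 at 3.92 ± 1.24. Overlapping neighbors were Irgm1 and Gbp9, Gbp2 and Igtp, Gbp4 and Gbp7, and Gbp7 and Gbp6.

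The make-up of the family shifted with these changes. Gbp2 made up 27.4 ± 1.92% of the summed level per kilobase of the 10 genes after DMSO and 13.4 ± 2.13% after P3FI-90. Gbp3 went from 6.65 ± 1.82% to 22.4 ± 1.54%, and Irgm1 from 26.0 ± 1.88% to 16.1 ± 0.491%. The groups did not overlap for any of these 3 shares. The 10 genes together had between 27.2 and 33.3 CPM (counts scaled to a common library total) in the DMSO libraries and between 61.7 and 72.7 in the P3FI-90 libraries, so they remained a small part of the transcriptome in both.

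**Figure D4:**
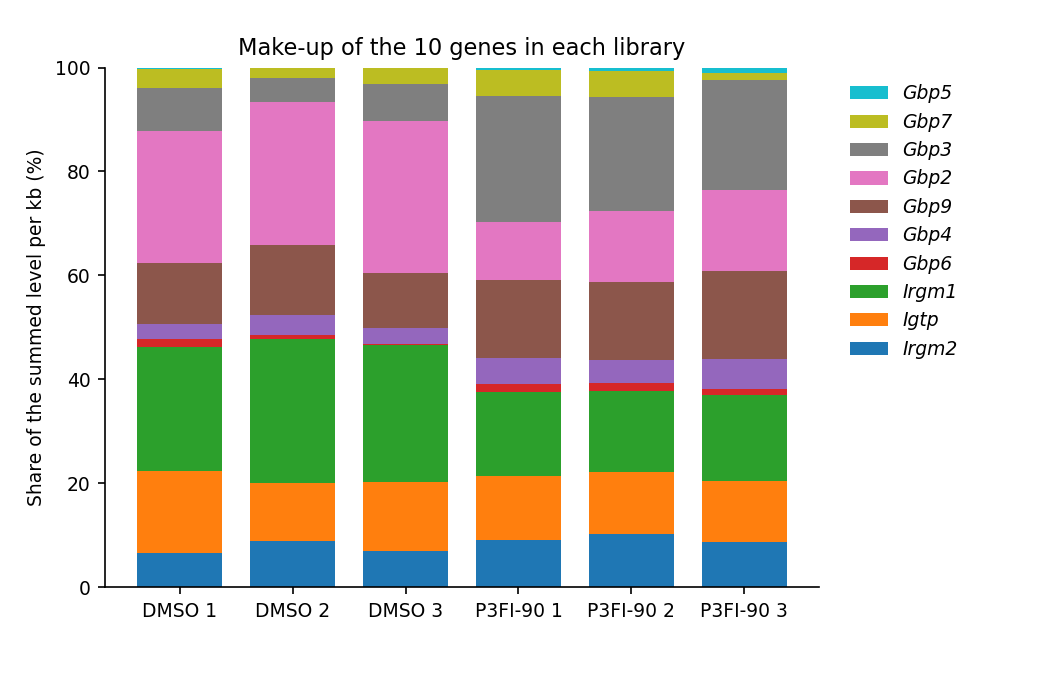
Share of each of the 10 genes in their summed level per kilobase of exon (percent, stacked bars from 0 to 100), with 1 bar for each of the 6 libraries. The share of Gbp2 (pink) shrinks from 27.4% on average after DMSO to 13.4% after P3FI-90, and that of Gbp3 (dark gray) widens from 6.65% to 22.4%.

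Other interferon-inducible GTPases were read from a list of 18 genes, of which 16 were found in the table by symbol and 11 were tested. Of these, 9 were called higher and none lower, where 39.9% of all tested genes were called higher. Gbp8, Gbp10, Mx1 and Mx2, 4 of the 11, passed the filter only through the P3FI-90 libraries, which favors a higher call. The others are counted apart, and 5 of those 7 were called higher. These 5 were Iigp1, Tgtp1 with Tgtp2, and Gvin1 with Gvin2. Each of these pairs shares most of its sequence, so the calls within a pair are not separate results. Iigp1 reached the limit of the filter in 1 DMSO and 2 P3FI-90 libraries, so it too needed treated libraries to pass. Mx2, a dynamin-like antiviral GTPase, rose from 10.6 ± 5.95 to 101 ± 20.6 normalized counts (log2 fold change 3.23 ± 0.37 SE, adjusted p = 1.85e-06). Mx1, its paralog, had no counts in any DMSO library and 11, 13 and 10 after P3FI-90, at least 9.91-fold higher against a floor of 3 counts over the group. If both mates were counted, a floor of 6 counts would give at least 4.95-fold for Mx1. The effector IRGs Tgtp1 and Tgtp2 had log2 fold changes of 1.24 and 1.96 (adjusted p = 0.00223 and 2.96e-04), although 81.2% and 86.6% of their 50-base stretches occur in other genes, for the most part in each other. Gvin1 and Gvin2, very large GTPases that share nearly all of their sequence, had log2 fold changes of 0.68 and 0.73. Gbp8 (1.83, adjusted p = 0.0251), Gbp10 (1.79, adjusted p = 0.0401) and the effector Iigp1 (2.14, adjusted p = 0.0409) rested on few counts, and each lost its call under 5 or more of 14 settings. Without the first DMSO library the log2 fold changes of Gbp8 and Gbp10 were 3.14 and 3.56, and Iigp1, with 14 counts in that library and none in the other controls, was at least 13.4-fold higher against a floor of 3 counts over the group. Ifi47, an IRG known also as Irg47, was not called (0.33, 95% interval −0.26 to 0.92, adjusted p = 0.282). Gm4841, Gm12185, Gm5431 and Gm4951, which the table holds under its identifier as Iigp1c, were not tested. Gm4841 had 22, 2 and 0 counts after DMSO and none after P3FI-90, at least 9.15-fold lower, but without the first DMSO library its 2 remaining counts were under the floor and gave no fold.

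Of 24 listed interferons and factors that control these GTPases 18 were tested, with 8 higher, 6 lower and 4 neither. Their median log2 fold change was 0.14, beside 0.013 over all tested genes, of which 39.9% were called higher and 39.4% lower, so the counts of the list were near that background. Irf9 and Stat2, which act together at the ISRE, had log2 fold changes of 1.03 and 0.91, and Irf1 and Irf2, further factors that bind such sites, 0.58 and 0.78. The interferon gamma receptor subunits Ifngr1 and Ifngr2 rose by 0.72 and 0.81 on the log2 scale.

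Lower were Ptpn6, a phosphatase that dampens cytokine signaling, which fell by 1.28 on the log2 scale, and the kinase Jak2, which fell by 0.51. Socs3, Socs1, Ifnar2 and Jak1 made up the other lower calls, and those of Socs1 and Jak1 were lost under total-count scaling. Ifng had no counts in any of the 6 libraries, where 3 counts correspond to 0.0802 to 0.0958 CPM. Ifnb1, encoding interferon beta, had no counts in the DMSO libraries and 8, 15 and 6 after P3FI-90, and it did not pass the filter for the test. It was at least 8.45-fold higher against a floor of 3 counts over the group, or 4.22-fold against 6 counts if both mates were counted.

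Genes that load GBPs and IRGs onto vacuoles, by conjugating ATG8 proteins or ubiquitin, were called in 1 direction only. Of 14 tested 12 were called higher and none lower (median log2 fold change 0.53, against 39.9% higher, 39.4% lower and a median of 0.013 over all tested genes), and the call of 1 of the 12, Atg16l1, was lost under 6 of 15 settings. Sqstm1, the autophagy receptor p62, had a log2 fold change of 1.52, Traf6, a ubiquitin ligase, 1.21, the ATG8 protein Gabarapl2 0.87, Atg12, of the conjugation machinery, 0.79, the large ubiquitin ligase Rnf213 0.72 and the ATG8 protein Gabarap 0.59.

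Enzymes that prenylate and process proteins with a C-terminal CaaX box, as several GBPs have, counted 2 higher and 2 lower of 6 tested, near the 39.9% and 39.4% of all tested genes. Pggt1b, the catalytic subunit of the enzyme that adds geranylgeranyl groups, had a log2 fold change of 0.98, and Fnta, the subunit shared by both prenylating enzymes, one of 0.11 that upper-quartile scaling no longer called. Fntb, the catalytic subunit of the enzyme that adds farnesyl groups, fell by 0.74 and the CaaX protease Zmpste24 by 0.56 on the log2 scale.

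Of 9 listed inflammasome genes downstream of GBPs 7 were tested, with 4 higher and 2 lower, where calls in both directions were common among all tested genes (39.9% and 39.4%). Nlrp3, counted among the 4, passed the filter on low counts only through the P3FI-90 libraries, which favors a higher call. Casp4, which encodes caspase-11, the sensor of cytosolic lipopolysaccharide, rose from 31.6 ± 3.47 to 123 ± 6.72 normalized counts (log2 fold change 1.96 ± 0.24 SE, adjusted p = 3.10e-06). Gsdmd, encoding the pore-forming protein that caspase-11 cleaves, fell from 828 ± 63.1 to 363 ± 18.5 normalized counts (log2 fold change −1.19 ± 0.089 SE, adjusted p = 1.87e-08). Il1b had a log2 fold change of 1.97, Ninj1, which ruptures the membrane of dying cells, 0.62, and Nlrp3, which rested on few counts, 1.77 with a call lost under 5 of 14 settings and a value of 3.17 without the first DMSO library. Casp1 fell by 1.35 on the log2 scale from 40.8 ± 13.2 normalized counts, and by 1.06 without the first DMSO library, where the call was lost (adjusted p = 0.0522). Aim2, a sensor of cytosolic DNA, had 6, 0 and 11 counts after DMSO and 0, 5 and 5 after P3FI-90 and was not tested.

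**Figure D5:**
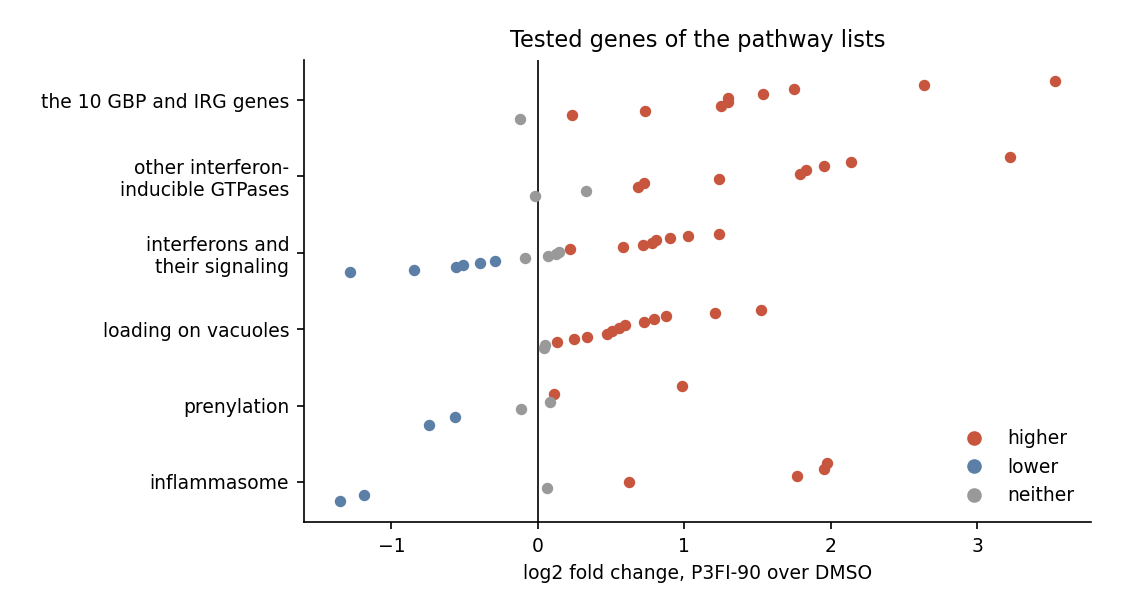
Log2 fold changes (P3FI-90 over DMSO) of the tested genes of 6 lists, with 1 point per gene, red for genes called higher, blue for lower and gray for neither (edgeR's quasi-likelihood test, adjusted p under 0.05). The GTPases and the vacuole-loading genes have no lower call, while the signaling, prenylation and inflammasome lists have calls on both sides, and Mx1 is left out because it had no counts after DMSO.

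Cell type markers were read to see which cells the libraries held. The epithelial markers Epcam, Cdh1, Krt8, Krt18, Krt19 and Cldn7 were all abundant, and all 6 were lower after P3FI-90, with summed normalized counts of 110325 to 115967 in the DMSO libraries and 56042 to 58704 in the P3FI-90 libraries. Fewer cells of a type and less RNA per cell cannot be told apart in such bulk samples. Of 10 leukocyte markers, which matter here because leukocytes make GBPs in quantity, 3 were tested, with Csf1r called higher (log2 fold change 1.56, adjusted p = 2.00e-04) and Cd68 and Ptprc not called. Ptprc depended on single libraries, and its call or sign changed under 3 of 14 settings. Its log2 fold change was 0.53 with all libraries and −0.26 without the first P3FI-90 library. Without the first DMSO library it was 2.91 and was called higher (edgeR's test, adjusted p = 0.0322). The summed level of the 10 leukocyte markers was 398 to 496 normalized counts in the DMSO libraries and 413 to 516 in the P3FI-90 libraries, mostly from Cd68. The macrophage marker Adgre1 was at 0 in every library, and the T cell marker Cd3e had at most 2 counts. Lyz2 had 16 counts after DMSO, all in the first library, and 0 after P3FI-90. Cd52 had 4 and 0. Of 7 fibroblast and endothelial markers 2 were tested, with Pdgfra called lower and Pecam1 called higher on few counts (log2 fold change 2.10). Pecam1 passed the filter only through the P3FI-90 libraries. The Pecam1 call was lost under 6 of 14 settings, and without the third DMSO library, the only control with counts, it was at least 12.1-fold higher against a floor of 3 counts over the group. The summed level of the 7 markers was 1348 to 1416 normalized counts in the DMSO libraries and 935 to 1047 in the P3FI-90 libraries. Among those not tested, Col3a1, Pdgfrb and Dcn had 38, 9 and 5 counts after DMSO and 0 after P3FI-90. Cdh5 and Kdr had 0 after DMSO and 5 and 8 after P3FI-90. The part of the epithelial decrease and of the Csf1r increase in the changes of the GTPases was not tested.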

How the data were processed

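RNA from 4T1 cells treated with DMSO or P3FI-90 (3 libraries each) was sequenced with an Illumina mRNA kit. The authors deposited read counts per gene as whole numbers without normalization. The authors' processing notes name CASAVA, HISAT2, StringTie and the build GRCm39, and counting settings, annotation and strandedness are not given in the sources used here. Of 22401 rows, 296 carried no Ensembl identifier and were excluded, which took away 0.483% to 0.556% of a library's counts. Of the rest, 6452 were at 0 in every library.

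R 4.3.3 was used with edgeR 4.0.16. Low genes were removed by filterByExpr, libraries were scaled by TMM, and groups were compared without a block by edgeR's quasi-likelihood test with Benjamini-Hochberg adjustment over 12288 genes, called at an adjusted p under 0.05. Standard errors and 95% intervals came from the same fit. Normalized counts are counts divided by a library's effective size relative to the average of all libraries. Alternatives were other scalings (DESeq2 size factors, total count, upper quartile), all genes or those with 10 or more counts in each library, limma-voom and limma 3.58.1 on log2(CPM + 1), the Wald test of DESeq2 1.42.0, the replicate number as a block, each library left out in turn and, added after seeing the data, Gbp6 with Gbp10 and Igtp with Irgm2 summed. The test was checked on simulated counts. Exon lengths and shared 50-base stretches came from GENCODE M21 on GRCm38, and promoter windows from RefSeq.

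The genes and lists were chosen with earlier results of these data known. The text names the 10 genes, Kdm3b, the other GTPases with at least 10 counts in all, up to 6 called genes of each pathway list with the smallest p, a set of preset genes (Ifng, Ifnb1, Irf1, Casp4, Gsdmd and Aim2, with 1 more not reported here), marker genes and the 5 genes most like Irgm1. Names beyond that rule, such as Gm43302, Socs1 and Jak1, were added after their values were seen. Of the listed GTPases, Gm4951 was found by identifier under another symbol and Gvin3 was not analysed here.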

Additional observations from a re-analysis of the deposited data

How the results depend on the processing

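Over 15 alternative settings the number of the 10 genes called higher lay between 7 and 9, and none was called lower in any. The count was 7 with at least 10 counts in every library, where only 8 of the 10 were tested, and 7 to 9 when 1 library was left out. Of the other interferon-inducible GTPases, 4 were higher when at least 10 counts were required in every library, since fewer were tested, 6 to 9 when 1 library was left out, and 1, Gm4841, was lower without a filter. Gbp2 turned to 0.093 under total-count scaling (adjusted p = 0.574). Log2 fold changes ranged from 2.15 to 2.94 for Gbp3, 1.18 to 1.75 for Gbp4, 0.77 to 2.77 for Gbp6, 0.78 to 1.70 for Gbp7, 1.16 to 1.52 for Gbp9, 0.17 to 0.45 for Irgm1, 0.96 to 1.46 for Irgm2 and 0.56 to 0.98 for Igtp. Except for Irgm1, the lowest of these values came from limma on log2(CPM + 1), where the added 1 CPM shrinks differences between low values. No range is given for Gbp5, which had no control counts once the first DMSO library was left out.

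Whether equal replicate numbers mark paired cultures is not stated in the labels, and no pairing was assumed, since deviations of equally numbered libraries from the group means did not go together (correlations across genes of −0.021, 0.015 and 0.0049). With the replicate number as a block, 9 of the 10 genes were higher and 0 lower, 8 of the other GTPases were higher and 0 lower, and 4802 genes in all were higher.

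Depth limits Gbp5, Gbp6, Gbp8, Gbp10, Iigp1, Mx1, Mx2, Tgtp1 and Tgtp2, which had 0 to 27 counts in each DMSO library. No value here separates read sharing between near-identical genes from their own expression.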

Other observations

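The genes whose normalized counts over the 6 libraries, on a log2 scale centered on the DMSO mean, lay nearest to those of Irgm1, the gene with the highest mean of the 10, were Atg5, Scly, Hspbap1, 1110004F10Rik and Cox14. Their Euclidean distances from Irgm1 were 0.0549 for Atg5, 0.0764 for Scly, 0.0805 for Hspbap1, 0.103 for 1110004F10Rik and 0.124 for Cox14, with log2 fold changes from 0.20 for Hspbap1 to 0.26 for Cox14 beside 0.23 for Irgm1. The distances are a description without a test.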
